A study of Homo sapiens with 12 samples.

Results

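The genes described here encode the nuclear-encoded proteins that build the mitochondrial respiratory complexes, measured by RNA sequencing in C4.2B, a line of human prostate cancer that grows without androgen. They were taken from the protein-coding rows of the count table by symbol: the numbered NDUFAF, COX10 to COX19, COA, UQCC, SDHAF, SCO and ATPAF genes, together with SURF1, BCS1L, TTC19, ECSIT, FOXRED1, TIMMDC1, TMEM126B and NUBPL. This gave 42 rows with 41 symbols among 58735 rows, since SCO2 has 2 rows, and 40 of the 42 rows passed the filter on low counts. The cells were treated in 4 arms with 3 libraries each, 12 libraries in all. The DMSO arm received vehicle, AKTi was 0.25 µM ipatasertib, an inhibitor of the AKT kinases, EZH2i was 1 µM tazemetostat, an inhibitor of the histone methyltransferase EZH2, and the combination held both agents at those doses. Cells of the EZH2i and combination arms had been exposed to tazemetostat for 6 days beforehand, and RNA was taken in every arm at 24 hours of charcoal-stripped serum, an androgen-depleted condition that the DMSO cells shared. All values therefore come from a single cell line, and the study's methods have the cells plated as 3 parallel dishes after the pretreatment. Whether the letters A, B and C mark cultures kept apart before that is not stated, so p-values measure the spread between such dishes.

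Complexes I to IV pass electrons from NADH and succinate to oxygen and complex V uses the resulting proton gradient to make ATP. None of these enzymes assembles on its own. Assembly factors, which are not part of the finished complex, insert iron-sulfur clusters, flavin, heme A and copper, hold half-built modules together, and escort the subunits made inside the mitochondrion into the inner membrane. Inherited loss of many of them, SURF1 and BCS1L among them, is a known cause of mitochondrial disease.

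The libraries held 14133755 to 22276417 counts. The 42 rows took 0.218% to 0.233% of the counts in the DMSO libraries, 0.195% to 0.199% with AKTi, 0.169% to 0.177% with EZH2i and 0.145% to 0.147% with the combination, with no overlap between arms. Levels below are CPM, each count as a share of its library's total and scaled by TMM, a factor that assumes most genes equal between libraries. A fold change is the log2 ratio between arms as fitted by edgeR quasi-likelihood over 12 libraries, called at an adjusted p under 0.05. Its standard error (SE, after ±) was derived as the absolute log2 fold change divided by the square root of the F statistic of its test. The 9 markers of a luminal prostate line, KLK3 among them, summed to between 4308 and 9390 CPM per library, lowest in DMSO and highest with the combination. Of 8 markers of leukocytes, endothelium and stroma, CD3E was at 0 in every library and all together summed to between 4.97 and 20.9 CPM, with 17.7 to 20.9 CPM in the EZH2i libraries against 5.32 to 8.68 CPM in DMSO, and the part of such RNA in the results was not tested. In bulk RNA, a lower level in every cell and a change in the mix of cells cannot be told apart.

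Stretches of promoter are shown for 3 members that fell in the combination and share a motif, beside COX19, whose change there was not called; they were chosen with these values known. RefSeq promoter windows (GRCh38.p14, the 250 bases before the annotated start) were found for 36 of the 41 symbols. Each run below is the longest part of that window outside the gene model of the count table and outside every GENCODE exon, written 5′ to 3′ on the gene's strand, and capitals mark a match to GCATGCG on either strand, the core of the site that nuclear respiratory factor NRF1 is known to bind.
UQCC2, chr6:33711728-33711950, minus strand: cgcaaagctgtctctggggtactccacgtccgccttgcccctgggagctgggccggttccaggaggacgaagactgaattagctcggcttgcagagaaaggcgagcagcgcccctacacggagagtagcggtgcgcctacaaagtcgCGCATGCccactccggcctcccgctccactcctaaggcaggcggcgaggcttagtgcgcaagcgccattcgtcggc
COX17, chr3:119677455-119677656, minus strand: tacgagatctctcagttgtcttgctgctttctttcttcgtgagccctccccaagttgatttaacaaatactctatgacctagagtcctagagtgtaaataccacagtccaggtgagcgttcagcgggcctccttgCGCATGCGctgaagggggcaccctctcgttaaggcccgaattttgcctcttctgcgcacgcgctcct
COX18, chr4:73069756-73069966, minus strand: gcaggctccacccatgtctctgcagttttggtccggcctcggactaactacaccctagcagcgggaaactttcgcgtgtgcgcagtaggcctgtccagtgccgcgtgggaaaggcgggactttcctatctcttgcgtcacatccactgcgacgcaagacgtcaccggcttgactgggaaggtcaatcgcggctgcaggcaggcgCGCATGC
COX19, chr7:975600-975799, minus strand: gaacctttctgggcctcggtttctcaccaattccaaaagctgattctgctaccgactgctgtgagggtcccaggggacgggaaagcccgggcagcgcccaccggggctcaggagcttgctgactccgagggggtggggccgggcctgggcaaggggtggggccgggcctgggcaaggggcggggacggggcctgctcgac
GCATGCG was present on either strand in 4 of the 36 windows (11.1%; UQCC2, COX17, COX18 and SDHAF2), against 3.39% of 35116 promoter windows and 5.79% of the 10939 windows of tested genes. CCGGAAG, the core bound by ETS factors such as GABPA, was in 10 member windows (27.8%) against 15.6% of those of tested genes. CACGTG, the E-box bound by MYC and related factors, was in 4 (11.1%) against 9.08% (NDUFAF5, COA7, COX14 and ATPAF2), and AAGATGG, the YY1 core, was in 0 of 36 against 3.64%. The median change in the combination was -1.14 for members with GCATGCG and -0.74 for those without. It was -0.75 and -0.82 for CCGGAAG, and -1.00 and -0.82 for CACGTG. Among the carriers of GCATGCG, SDHAF2 changed by only -0.32 in the combination. NDUFAF5, BCS1L, COA4, COX16 and COA6 held no match to it in their windows and fell further than COX17. No test was made of these shares or medians, and the shares are a description of letters in short windows.

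In the combination, 33 of the 40 tested members fell against DMSO and 0 rose by edgeR, where 35.2% of all 16646 tested genes fell and 38.0% rose. The median log2 fold change of the members was -0.84, beside 0.06 over all tested genes. EZH2i alone lowered 30 members and raised 1, against 31.5% and 32.6% of all genes, with a median of -0.56 beside 0.03. AKTi alone lowered 20 and raised 2, against 21.9% and 20.6%, with a median of -0.23 beside 0.01. The 3 comparisons share the DMSO libraries. Per library, the median of the members relative to the DMSO mean lay between -0.28 and -0.24 with AKTi, between -0.55 and -0.50 with EZH2i and between -0.83 and -0.79 with the combination, so that the libraries of an arm lay close together and the arms did not overlap (DMSO libraries, -0.08 to 0.04). Scaling by library size alone moved the median of all genes in the combination from 0.06 to 0.26 and the members' median from -0.84 to -0.65.

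**Figure D1:**
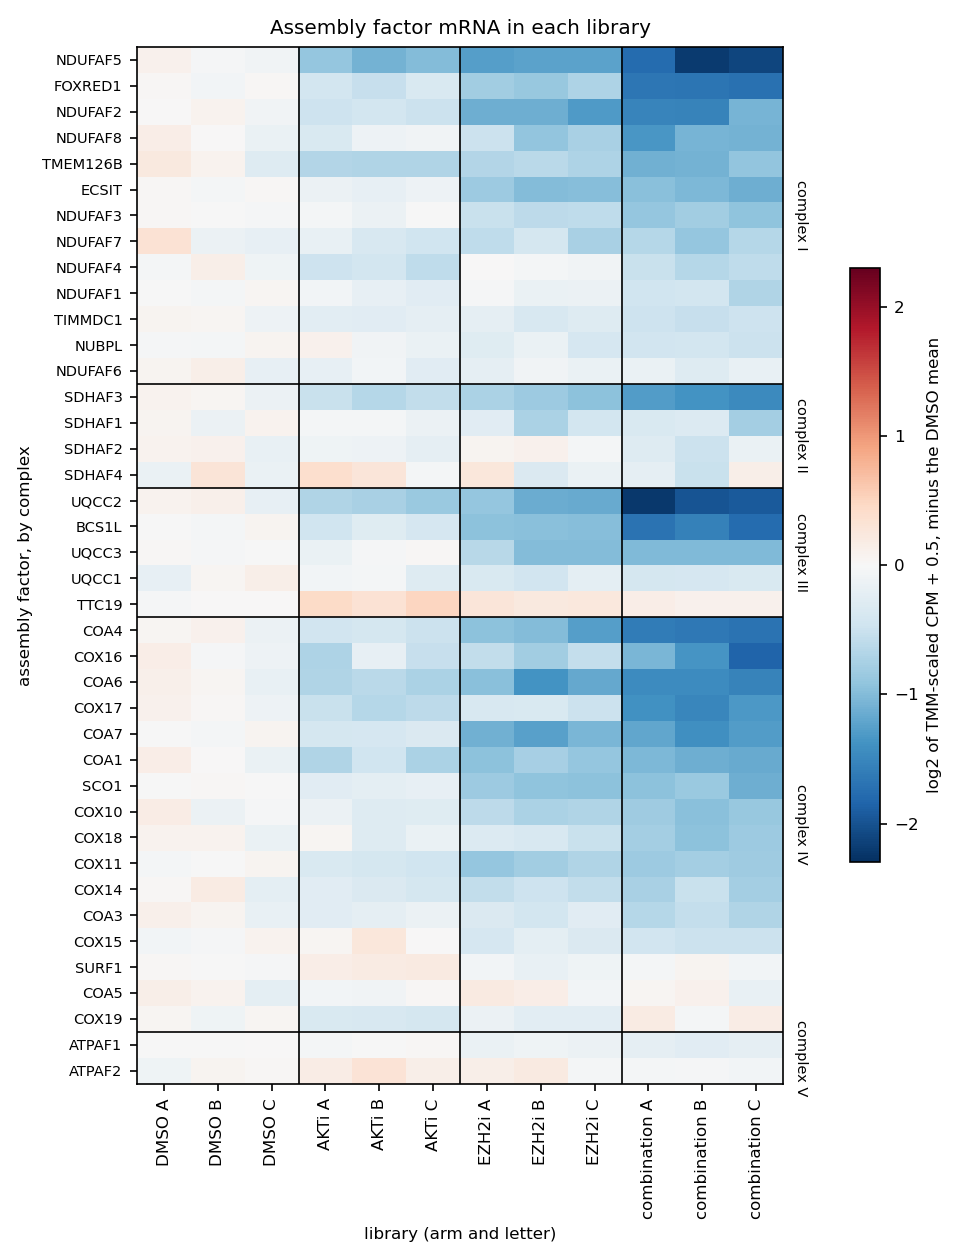
Each row is a tested assembly factor and each column a library, coloured by the log2 of its TMM-scaled CPM plus 0.5 minus the mean of the DMSO libraries (blue lower, red higher). The colour deepens from the DMSO to the combination libraries in most rows, while SURF1, COA5, COX19, TTC19 and ATPAF2 stay pale or red.

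**Figure D2:**
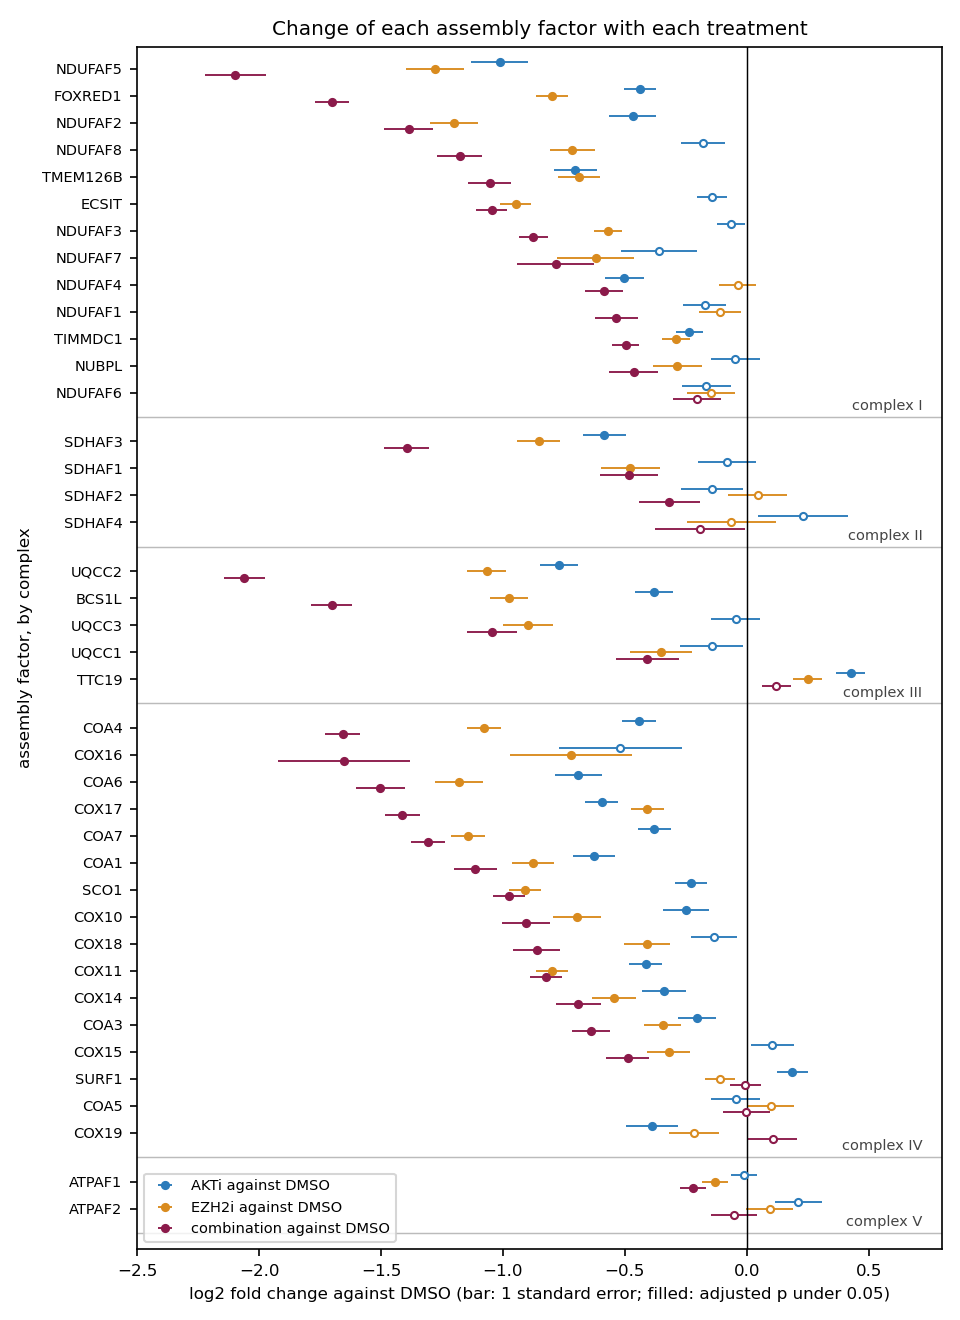
Log2 fold change against DMSO of each tested member (point, with a bar of 1 SE), grouped by complex, for AKTi, EZH2i and the combination; filled points have an edgeR adjusted p under 0.05. NDUFAF5 and UQCC2 lie furthest to the left, at -2.10 and -2.06 in the combination.

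Complex I, the NADH dehydrogenase, is the largest of the complexes, and 12 of its 13 assembly factors fell in the combination (median -0.88), 10 with EZH2i and 6 with AKTi, and 0 rose in any of these. NDUFAF5, a hydroxylase that modifies the core subunit NDUFS7, lies at chr20:13784950-13821582 on the plus strand of hg38. It counted 27.9, 25.7 and 24.6 CPM in DMSO libraries A, B and C, 13.8, 11.98 and 12.9 with AKTi, 10.5, 10.8 and 10.8 with EZH2i, and 7.25, 5.25 and 5.62 with the combination. The 4 arms did not overlap, and each treated arm lay below DMSO. Its fold change of -2.10 ± 0.13 (adjusted p = 1.96e-17) in the combination was the lowest of the members, as were its -1.01 ± 0.12 with AKTi and -1.28 ± 0.12 with EZH2i. NDUFAF8, the partner that holds NDUFAF5 in place, changed by -1.18 ± 0.09 in the combination and by -0.18 ± 0.09 with AKTi, which was not called. FOXRED1, a flavoprotein needed for the later steps, at chr11:126269055-126278131, counted 97.8, 92.1 and 98.1 CPM in DMSO, 71.3, 66.6 and 74.7 with AKTi, 54.6, 52.1 and 58.7 with EZH2i, and 30.1, 29.5 and 29.0 with the combination. Again the arms were separate, and the combination libraries lay at 30.8% of DMSO by the fitted fold, -1.70 ± 0.07 (adjusted p = 1.88e-22).

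NDUFAF2, a relative of the subunit NDUFA12 that sits on a late intermediate, counted 45.8, 47.7 and 42.7 CPM in DMSO, 32.3, 33.8 and 32.2 with AKTi, 20.6, 20.6 and 18.0 with EZH2i, and 15.5, 15.4 and 21.3 with the combination. Library C of the combination overlapped the EZH2i libraries. Its fold change was -1.39 ± 0.10 in the combination and -1.20 ± 0.10 with EZH2i, and the combination did not differ from EZH2i by the test (-0.18 ± 0.10, adjusted p = 0.153), although without combination library C it was called lower (-0.35, adjusted p = 0.00646). The factors grouped with the MCIA complex, which builds part of the membrane arm, all fell in the combination (4 of 4), from TMEM126B (-1.05 ± 0.09) to TIMMDC1 (-0.50 ± 0.06). TMEM126B counted 86.8, 78.6 and 60.4 CPM in DMSO, 46.4, 46.0 and 45.7 with AKTi, 46.3, 48.0 and 45.4 with EZH2i, and 34.5, 34.7 and 39.3 with the combination. The DMSO libraries spread widely, yet the lowest of them stood above every treated library, and AKTi and EZH2i overlapped. ECSIT, which bridges to innate immune signalling, fell by 0.95 on the log2 scale with EZH2i and by 1.05 with the combination, and its change of -0.14 ± 0.06 with AKTi was not called (adjusted p = 0.0619) but was in 5 of 20 alternative analyses, DESeq2 among them (0.0446).

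NDUFAF3 and NDUFAF4 work together on the quinone-binding module, yet their values with the single agents differed. NDUFAF3 changed by -0.06 ± 0.06 with AKTi, which was not called, and by -0.57 ± 0.06 with EZH2i, whereas NDUFAF4 changed by -0.50 ± 0.08 with AKTi and by -0.04 ± 0.08 with EZH2i, which was not called. The direct test of EZH2i against AKTi gave -0.51 ± 0.06 for NDUFAF3 (adjusted p = 3.10e-09) and 0.47 ± 0.08 for NDUFAF4 (adjusted p = 4.88e-06). NDUFAF7, a methyltransferase, changed by -0.78 ± 0.16 in the combination, NDUFAF1 by -0.54 ± 0.09 and NUBPL, which carries iron-sulfur clusters to complex I, by -0.46 ± 0.10. NDUFAF6 was the only complex I factor not called in the combination (-0.20 ± 0.10, adjusted p = 0.0605), and it was called in 8 of 20 alternative analyses.

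Complex II, succinate dehydrogenase, has 4 factors, of which 3 fell in the combination (median -0.40). SDHAF3, a small protein that protects the iron-sulfur subunit SDHB during maturation, changed by -1.39 ± 0.09 (44.7 ± 3.76 CPM, SD, in DMSO and 16.9 ± 1.08 in the combination, n = 3 each). SDHAF1, which shares that task, changed by -0.48 ± 0.12 and SDHAF2, the factor that attaches flavin to SDHA, by -0.32 ± 0.13 (adjusted p = 0.0222). The SDHAF2 libraries of the combination, from 9.34 to 11.96 CPM, overlapped those of DMSO, from 11.8 to 14.3 CPM, and the call was lost without DMSO library A (adjusted p = 0.0712) or combination library B (0.122), and under library-size scaling (-0.12, 0.386), upper-quartile scaling (-0.13, 0.337) and the stricter count filter (0.0706). SDHAF4, which binds flavinated SDHA, counted 6.60, 9.15 and 6.62 CPM in DMSO, 9.84, 9.04 and 7.16 with AKTi, 8.97, 5.79 and 6.62 with EZH2i, and 6.34, 5.02 and 8.10 with the combination. All its arms overlapped, and its change of -0.19 ± 0.19 in the combination was not called. Against AKTi the combination was called lower. That call was lost under DESeq2 (adjusted p = 0.0581), library-size (0.179) and upper-quartile scaling (0.167) and the stricter count filter (0.0908). It was also lost without AKTi library A or B or combination library A or B (0.0895 to 0.230).

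Complex III, the cytochrome bc1 complex, held both the second lowest and the highest fold change of the members in the combination, the latter not called, and 4 of its 5 factors fell (median -1.04). UQCC1, UQCC2 and UQCC3 bind and stabilise newly made cytochrome b. UQCC2, at chr6:33694293-33711727 on the minus strand, counted 131, 134 and 109 CPM in DMSO, 76.4, 73.4 and 68.8 with AKTi, 67.0, 56.3 and 55.2 with EZH2i, and 26.4, 30.9 and 32.3 with the combination. Its arms did not overlap, and its level in the combination was 24.0% of DMSO (-2.06 ± 0.08, adjusted p = 1.95e-22), after -0.77 ± 0.08 with AKTi and -1.07 ± 0.08 with EZH2i. UQCC3 changed by -0.90 ± 0.10 with EZH2i and by -0.05 ± 0.10 with AKTi, which was not called, and the direct difference between the single agents, -0.85 ± 0.10 (adjusted p = 1.01e-08), was the lowest of the members. UQCC1, the partner of UQCC2, changed by only -0.41 ± 0.13 in the combination (adjusted p = 0.00514, but 0.141 under library-size scaling).

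The last steps of complex III are the insertion of the Rieske iron-sulfur protein by BCS1L, an AAA ATPase, and the clearance of its cut-off fragments by TTC19, and these factors went apart. BCS1L, at chr2:218658764-218663443, counted 54.0, 52.4 and 56.8 CPM in DMSO, 39.4, 44.6 and 41.6 with AKTi, 28.0, 27.7 and 27.5 with EZH2i, and 16.4, 18.2 and 15.6 with the combination. The arms were separate and the EZH2i libraries lay close together. The fold change was -0.38 ± 0.08 with AKTi, -0.97 ± 0.08 with EZH2i and -1.70 ± 0.08 (adjusted p = 4.48e-20) with the combination. TTC19, at chr17:15999380-16045015, counted 73.9, 75.5 and 75.6 CPM in DMSO, 102, 94.7 and 105 with AKTi, 90.9, 88.0 and 88.8 with EZH2i, and 83.4, 80.3 and 80.8 with the combination. Every treated library lay above every DMSO library. TTC19 rose with AKTi (0.43 ± 0.06, adjusted p = 2.78e-07) and with EZH2i (0.25 ± 0.06, adjusted p = 0.000399), while its 0.12 ± 0.06 with the combination was not called (adjusted p = 0.0687) but was called under 3 alternatives, among them library-size scaling (0.32).

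**Figure D3:**
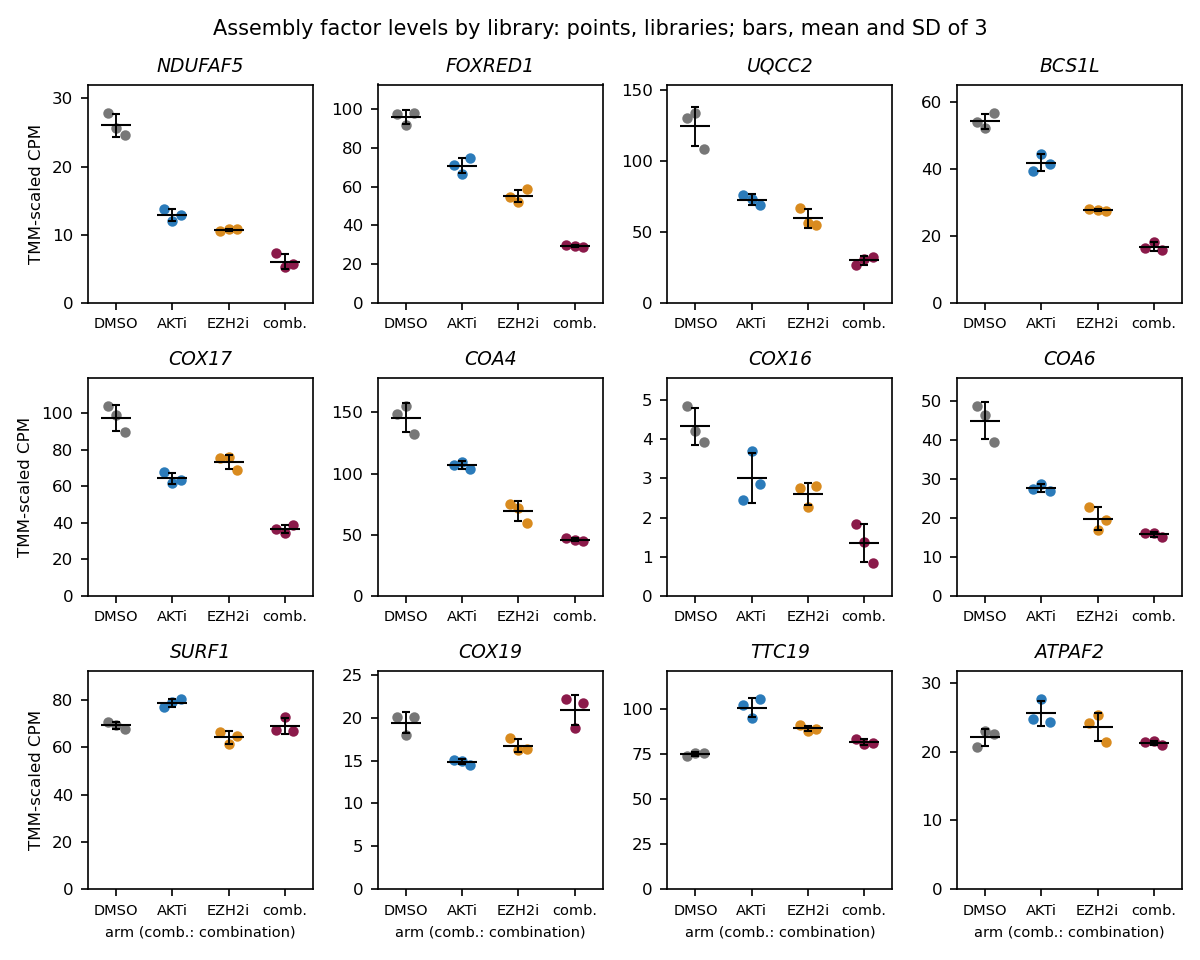
TMM-scaled CPM of 12 members in each library (points) with the mean and SD of 3 libraries (bars), by arm. The first 8 panels are lowest in the combination, as for BCS1L with a mean of 54.4 CPM in DMSO and 16.7 CPM in the combination; in the last 4, SURF1, COX19, TTC19 and ATPAF2, the combination lies near DMSO.

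Complex IV, cytochrome c oxidase, needs the most factors, and 13 of the 16 tested fell in the combination and 13 with EZH2i, with medians of -0.88 and -0.62. Copper reaches the enzyme through COX17, which loads SCO1, SCO2 and COX11, with COX19 and COA6 assisting. COX17, at chr3:119654513-119677454, counted 104, 99.1 and 89.6 CPM in DMSO, 67.9, 61.8 and 63.7 with AKTi, 75.3, 76.2 and 68.9 with EZH2i, and 36.6, 34.3 and 38.8 with the combination. Here AKTi lay below EZH2i with no overlap, and the combination fell to -1.41 ± 0.07 (adjusted p = 1.07e-19). COA6 counted 48.7, 46.5 and 39.6 CPM in DMSO, 27.6, 28.8 and 26.9 with AKTi, 22.8, 17.0 and 19.6 with EZH2i, and 16.1, 16.1 and 15.2 with the combination. Its arms were separate, with the combination just under the EZH2i libraries, and it changed by -1.50 ± 0.10 against DMSO. COX11, which hands copper to the subunit MT-CO1, counted 81.7, 83.7 and 88.2 CPM in DMSO, 65.8, 63.5 and 61.0 with AKTi, 45.5, 48.1 and 52.0 with EZH2i, and 46.8, 48.8 and 47.7 with the combination. The combination fell within the EZH2i libraries, and the fold change against DMSO was -0.82 ± 0.07 in the combination and -0.80 ± 0.07 with EZH2i. SCO1 showed the same order, with -0.23 ± 0.06 for AKTi, -0.91 ± 0.07 for EZH2i and -0.98 ± 0.07 for the combination.

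COX19, a partner of COX11, stood apart from the other copper proteins. It lies at chr7:898778-975599 and counted 20.1, 18.0 and 20.1 CPM in DMSO, 15.05, 14.99 and 14.5 with AKTi, 17.6, 16.2 and 16.4 with EZH2i, and 22.2, 18.9 and 21.7 with the combination. Both single agents lay below DMSO in every library, and the combination overlapped DMSO. The change was -0.39 ± 0.11 with AKTi (adjusted p = 0.00298), -0.22 ± 0.10 with EZH2i (0.0641, not called) and 0.11 ± 0.10 with the combination (0.348, not called, but called higher at 0.30 under library-size scaling and at 0.29 under upper-quartile scaling). In GENCODE, 17.7% of its exonic bases lie under exons of ADAP1 on the same strand. ADAP1, at 0.962 CPM in DMSO, was called higher with AKTi (1.06, adjusted p = 0.0180) and with the combination (0.79, 0.0481). SCO2, the other copper chaperone of its pair, could not be compared: its rows ENSG00000130489 and ENSG00000284194 held 1 to 12 and 0 to 7 counts per library, both failed the filter, and their sum was 10, 10 and 13 counts in DMSO and 3, 6 and 6 in the combination. The 2 rows overlap each other on the minus strand, at chr22:50523568-50525606 and chr22:50523568-50526439. For ENSG00000284194, 26.1% of exonic bases are shared with TYMP on the same strand and 62.1% with genes on the opposite strand. How reads over 2 genes were counted is not given in the sources used here, and whether overlap kept the SCO2 counts low was not tested.

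Heme A is made by COX10 and COX15 and SURF1 helps to place it. COX10 and COX15 changed by -0.91 ± 0.10 and -0.49 ± 0.09 in the combination, while AKTi alone gave -0.25 ± 0.10 (adjusted p = 0.0334) and 0.10 ± 0.09 (not called). The AKTi call of COX10 was lost without DMSO library A or C or AKTi library B or C (adjusted p from 0.0509 to 0.237). It was also lost under library-size scaling (-0.19, 0.112), upper-quartile scaling (-0.19, 0.107) and with genes of at least 1 count kept (0.0682). SURF1, at chr9:133351755-133356676, counted 70.7, 69.3 and 67.8 CPM in DMSO, 77.0, 79.2 and 80.2 with AKTi, 66.5, 61.2 and 64.8 with EZH2i, and 67.4, 72.6 and 66.7 with the combination. AKTi lay above all other arms, EZH2i below DMSO, and the combination overlapped DMSO. SURF1 rose with AKTi by 0.19 ± 0.06 (adjusted p = 0.0152), a call lost without DMSO library B or C or AKTi library B or C (adjusted p from 0.0535 to 0.111). The call was also lost with genes of at least 1 count kept (0.0732). The SURF1 value of -0.01 ± 0.06 in the combination became 0.19 and was called under library-size scaling.

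MT-CO1, the catalytic subunit made inside the mitochondrion, is held during its synthesis by COX14, COA3 and COA1, and these fell with each treatment (3 of 3 with AKTi, EZH2i and the combination). COA1 counted 67.0, 60.0 and 53.7 CPM in DMSO, 37.0, 43.8 and 35.9 with AKTi, 30.8, 35.2 and 32.1 with EZH2i, and 29.1, 27.4 and 26.7 with the combination. Its arms did not overlap, and it changed by -1.11 ± 0.09 in the combination. COX14 and COA3 changed by -0.69 ± 0.09 and -0.64 ± 0.08, and the AKTi call of COA3 was lost without DMSO library A or B or AKTi library A (adjusted p from 0.0664 to 0.186). That call was also lost under library-size scaling (-0.14, 0.130) and upper-quartile scaling (-0.15, 0.127). COX18 and COX16, which act on the insertion and copper loading of MT-CO2, changed by -0.86 ± 0.10 and -1.65 ± 0.27. COX16 was the lowest of the tested members in level, with 4.85, 4.204 and 3.93 CPM in DMSO, 2.46, 3.71 and 2.85 with AKTi, 2.75, 2.28 and 2.80 with EZH2i, and 1.82, 1.38 and 0.846 with the combination. AKTi and EZH2i overlapped, and the combination lay below every other library. With EZH2i it changed by -0.72 ± 0.25 (adjusted p = 0.0120, or 0.0537 without DMSO library A). Its exons are shared over 37.8% of their bases with SYNJ2BP and a read-through transcript of the same strand. SYNJ2BP itself changed by -0.09 in the combination (not called). It was called higher with EZH2i (0.39, adjusted p = 1.48e-05) and lower for the interaction (-0.54, 0.000138).

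Of the complex IV factors with less well defined steps, COA4 and COA7 changed by -1.66 ± 0.07 and -1.31 ± 0.07 in the combination. COA4, a cysteine-rich protein of the intermembrane space at chr11:73872667-73876988, counted 149, 155 and 132 CPM in DMSO, 107, 109.8 and 103 with AKTi, 75.2, 72.2 and 59.8 with EZH2i, and 47.4, 46.0 and 44.6 with the combination. The 4 arms were separate and in the order DMSO, AKTi, EZH2i, combination. COA5, another cysteine-rich factor, counted 32.2, 31.3 and 25.2 CPM in DMSO, 27.9, 27.7 and 29.8 with AKTi, 34.0, 32.6 and 28.0 with EZH2i, and 30.2, 31.6 and 26.1 with the combination. All arms overlapped, COA5 was not called in any of the 7 comparisons, and its fitted change in the combination was -0.002 ± 0.097. Under library-size scaling COA5 was called higher with EZH2i (0.24, adjusted p = 0.0257) and for EZH2i against AKTi (0.23, 0.0472).

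Complex V, the ATP synthase, has 2 listed chaperones, ATPAF1 for the beta and ATPAF2 for the alpha subunit of its F1 head. ATPAF1 changed by -0.13 ± 0.05 with EZH2i (adjusted p = 0.0277) and by -0.22 ± 0.05 with the combination (adjusted p = 0.000298), from 165 ± 1.85 CPM (SD, n = 3) in DMSO to 142 ± 2.74. The combination call for ATPAF1 was lost under library-size scaling, at -0.02, and under upper-quartile scaling (-0.04, adjusted p = 0.522). The EZH2i value turned to 0.01 under library-size scaling and was -0.01 under upper-quartile scaling (adjusted p = 0.852). The EZH2i call was also lost with either other count filter, with only the libraries compared, and without DMSO library C (adjusted p from 0.0597 to 0.103). ATPAF2 counted 20.7, 22.9 and 22.6 CPM in DMSO, 24.7, 27.6 and 24.3 with AKTi, 24.1, 25.4 and 21.4 with EZH2i, and 21.3, 21.5 and 21.0 with the combination. AKTi lay above DMSO and above the combination in every library, but the change against DMSO was not called (0.21 ± 0.10, adjusted p = 0.0744), nor was that of the combination (-0.05 ± 0.10). The AKTi change was called higher under library-size scaling (0.27, adjusted p = 0.0210), upper-quartile scaling (0.27, 0.0216) and with only the libraries compared (0.23, 0.0464). With EZH2i, ATPAF2 was called higher under library-size (0.24, 0.0274) and upper-quartile scaling (0.21, 0.0483).

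What each agent added to the other was read from the comparisons within pairs of arms. Against AKTi, the combination lowered 34 members and raised 1 (32.1% of all tested genes fell and 32.1% rose), with a median of -0.46. BCS1L was the lowest, at -1.32 ± 0.09, followed by UQCC2 at -1.29 ± 0.09 and FOXRED1 at -1.26 ± 0.07. Against EZH2i, it lowered 19 and raised 1 (25.7% and 21.1% of all genes), with a median of -0.20, from COX17 at -1.00 ± 0.07 to COX19 at 0.32 ± 0.10, which was the member raised in each of these comparisons; without combination library A its adjusted p against EZH2i was 0.0539. EZH2i directly against AKTi gave 21 members lower and 2 higher (25.1% and 25.4%), the higher being NDUFAF4 and COX17 (0.19 ± 0.07, adjusted p = 0.0238, or from 0.0596 to 0.181 without DMSO B, AKTi B, AKTi C, EZH2i A or EZH2i B). These comparisons share libraries with those against DMSO and with each other.

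The interaction, the effect of AKTi in the presence of EZH2i minus its effect without it, was called for 11 members, 6 lower and 5 higher, where 17.5% and 10.7% of all tested genes were called. Their shares, 6 and 5 of 40, lay near those of all genes, and the members' median was -0.07 beside -0.05. Lower than the sum of the single effects were TTC19 (-0.56 ± 0.08, adjusted p = 2.54e-06), FOXRED1 (-0.46 ± 0.10, 0.000289) and COX17 (-0.41 ± 0.10, 0.00166), followed by ATPAF2, BCS1L and NDUFAF3. Higher than the sum were COX19 (0.71 ± 0.15, adjusted p = 0.000275), COX11 (0.39 ± 0.09, 0.00166) and COA1 (0.39 ± 0.12, 0.0157), followed by COA6 and TMEM126B. Leaving out single libraries of each arm left between 2 and 5 called higher and between 3 and 7 called lower. For NDUFAF5 and UQCC2, the members that fell furthest, the interaction was 0.19 ± 0.18 and -0.22 ± 0.12 and was not called. COX16 had the interaction of widest error, -0.41 ± 0.38.

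**Figure D4:**
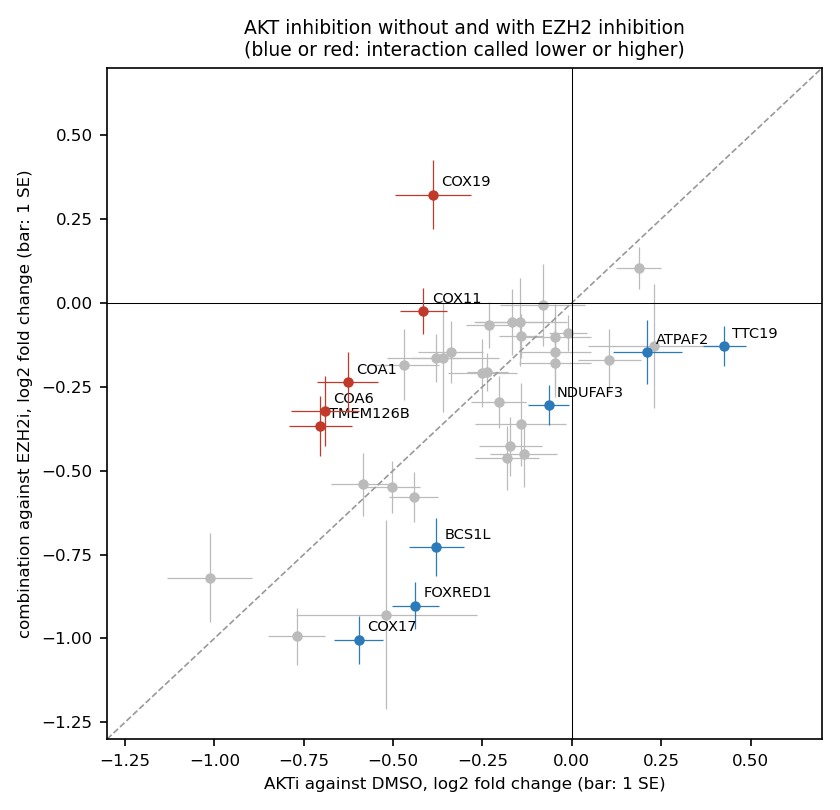
Each point is a member, with the log2 fold change of AKTi against DMSO on the x axis and of the combination against EZH2i on the y axis (bars, 1 SE; dashed line, equal effects). Members called lower for the interaction (blue) lie below the line, as COX17 at -0.60 and -1.00; those called higher (red) lie above it, as COX19 at -0.39 and 0.32.

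The subunits that these factors assemble were taken from lists written with earlier results of these data known, and are given beside the factors without a test between the lists. Of 76 tested nuclear-encoded subunits, 72 fell in the combination and 1 rose, with a median of -1.01. By complex, subunits of complexes I, II, III, IV and V fell in 34 of 37, 4 of 4, 9 of 9, 10 of 11 and 15 of 15. The medians of factors and subunits lay close for complex I (-0.88 and -0.83) and complex IV (-0.88 and -0.91). They lay further apart for complex III (-1.04 and -1.28), complex II (-0.40 and -0.86) and complex V, where only 2 chaperones were tested. Those 2, ATPAF1 (-0.22) and ATPAF2 (-0.05), had a median of -0.14. The 15 complex V subunits had a median of -1.29, down to -2.45 ± 0.08 for ATP5MC1, a subunit of the membrane ring. NDUFV2 rose by 1.09 ± 0.46 from 0.672 CPM in DMSO, the lowest level of the listed complex I subunits. With genes of at least 1 count kept, 0 of 76 subunits were called higher. With at least 10 counts in every library, 0 of 74 were. Under library-size scaling 68 of the 76 fell, and under the other alternatives that kept all libraries between 69 and 73.

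**Figure D5:**
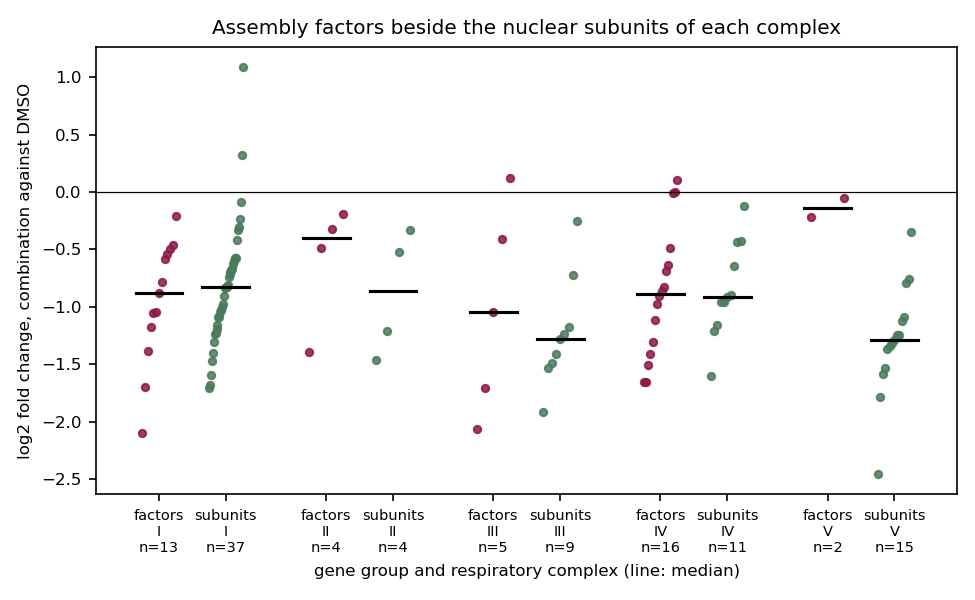
Log2 fold change of the combination against DMSO for the tested assembly factors (purple) and nuclear subunits (green) of each complex (points, genes; lines, medians). The medians of complex V lie at -0.14 for its 2 factors and -1.29 for its 15 subunits.

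A list of other assembly genes outside the symbol rule also holds CYCS, which encodes the electron carrier cytochrome c and is no assembly factor. Of its 29 tested genes 25 fell and 2 rose in the combination (median -1.08), from CYCS at -2.48 ± 0.06 to COX20, a chaperone of MT-CO2, at 0.93 ± 0.26. The mitochondrial genome's own 13 subunits moved oppositely, rising in 13 of 13 with AKTi, EZH2i and the combination, from MT-CO3 (0.40 ± 0.08) to MT-CO1 (1.02 ± 0.09) in the combination. Of 12 regulators of respiratory genes, 7 fell in the combination and 2 rose, from the coactivator PPARGC1B at -1.77 ± 0.12 to HIF1A at 0.14 ± 0.06. Neither rise was called by DESeq2, with its size factors in edgeR, with the lenient filter or with only the libraries compared (0 higher in each), and 4 regulators were called higher under library-size scaling. Whether any of these moved the assembly factors was not tested.

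Genes that start next to a member offer a comparison of position. Of the 40 tested members, 17 have a protein-coding gene on the opposite strand whose start lies within 1000 bases. Of these neighbours 9 fell, 2 rose and 6 were not called in the combination, where 35.2% of all tested genes fell and 38.0% rose. Neighbours could move unlike the member: SURF2, whose start lies 124 bases from that of SURF1, changed by -1.66 ± 0.10 while SURF1 changed by -0.01. ADPRM, 781 bases from SCO1, rose by 1.40 ± 0.13 while SCO1 fell by 0.98 on the log2 scale. Near NDUFAF5, ESF1 (64 bases) changed by -0.98 ± 0.10, beside -2.10 for NDUFAF5. Neighbours were listed by distance alone, and these examples were chosen after their values were seen.

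Per kilobase of gene model in DMSO, the tested members ran from 1.89 ± 0.22 CPM per kb for UQCC1 to 79.3 ± 5.16 for TIMMDC1 (SD, n = 3). COA4 followed TIMMDC1 with 64.8 ± 5.29 and NDUFAF3 with 54.3 ± 1.18, and COX16 had 2.32 ± 0.25. In GENCODE, 7 of 41 rows share over 10% of their exonic bases with another gene on the same strand (COX16, COX19, COX17, SDHAF2, COX15, COX14 and SCO2) and 9 do so with the opposite strand, and reads there are uncertain because the counting setting is not given in the sources used here. For COX17 the share is 20.04%, with POPDC2.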

How the data were processed

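PolyA RNA from C4.2B cells was sequenced in 12 libraries, 4 arms of 3. Per the labels and the study's methods, the authors aligned reads to hg38 with STAR and counted them per gene with HTSeq; the deposited values are whole-number counts for 58735 rows. Versions, annotation release and strand setting are not given in the sources used here, nor is which libraries were sequenced on which instrument, so no sequencing batch was modelled. A second table, of the authors' DESeq2-normalised values for the same libraries, was not used. Arms were taken from the labels.

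Counts were analysed in R 4.3.3 with edgeR 4.0.16: filterByExpr (minimum count 10, total 15) left 16646 genes, TMM scaled the libraries, and 1 mean per arm was fitted by quasi-likelihood over all libraries, without a replicate term. Each comparison was a contrast of means, and the interaction was the combination minus EZH2i minus AKTi plus DMSO. P-values were adjusted by Benjamini-Hochberg over all tested genes, at 0.05. Scripts were tested on simulated data. The members, lists and motifs were chosen with earlier results of these data known. Replicates of an arm differed by more than counting noise.

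Members described in every library were the 6 lowest and 6 highest in the combination, the 3 lowest and 3 highest with each single agent, and the 4 lowest and 4 highest for the interaction. Also named were the lowest and highest of each complex and task, members not called in the combination or failing the filter, and the lowest and highest of each context list; other genes are named by position. Alternatives were DESeq2 1.42.0, its size factors in edgeR, library-size and upper-quartile scaling, other count filters, only the libraries compared, a replicate term, and each library left out. Promoters came from RefSeq (GRCh38.p14) and overlaps from GENCODE 44, in which 14 member rows have the table's coordinates, so positions are those of the count table. At these depths the tested members held 14 to 4177 counts per library. Protein sequences were not used here.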

Additional observations from a re-analysis of the deposited data

Results flagged for a closer look

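For 11 members the effect of AKTi on the log2 scale differed between cells with and without EZH2i, by the interaction test of edgeR. Of the 40 tested members 6 were called lower and 5 higher, near the 17.5% and 10.7% of all tested genes. TTC19 rose with AKTi by 0.43 without EZH2i and changed by -0.13 with it, a difference of -0.56. FOXRED1 changed by -0.44 without and by -0.90 with EZH2i, a difference of -0.46, and COX17 by -0.60 and -1.00, a difference of -0.41. The differences of ATPAF2 (-0.36, adjusted p = 0.0430), BCS1L (-0.35, 0.0212) and NDUFAF3 (-0.24, 0.0258) were smaller. In the other direction, COX19 changed by -0.39 without and by 0.32 with EZH2i, a difference of 0.71, while COX11 (0.39), COA1 (0.39), COA6 (0.37, adjusted p = 0.0489) and TMEM126B (0.34, adjusted p = 0.0412) changed with AKTi less when EZH2i was present. EZH2i alone left COX11, COA1, COA6 and TMEM126B at 57.5%, 54.4%, 44.1% and 62.1% of DMSO. FOXRED1 and BCS1L, called lower for the interaction, changed by -0.80 and -0.97 with EZH2i alone, beside -0.80 for COX11. Whether the level with EZH2i bears on the interaction was not tested. The calls of TTC19, FOXRED1, COX17, COX11 and COX19 held under all 19 alternatives, and the other 6 calls were lost under some. COA1 was lost without library A of any arm (adjusted p from 0.0534 to 0.0814) and BCS1L without DMSO B, AKTi B, AKTi C, EZH2i C or combination C (0.0644 to 0.125). NDUFAF3 was lost without DMSO B, AKTi C, EZH2i C, combination A or combination C, among others (0.0544 to 0.153), and TMEM126B without DMSO A, DMSO B, AKTi A, EZH2i A, EZH2i C or combination C (0.0504 to 0.214). ATPAF2 and COA6 were the least stable, lost under 10 and 11 alternatives (highest adjusted p 0.199 and 0.167), including removal of any combination library.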

How the results depend on the processing

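Over 7 comparisons and 20 alternatives (19 for the interaction), 5560 member values were recomputed. Of these, 5345 kept their side of the threshold, 139 lost the call and 73 gained it. The other 3 turned direction and were called before or after. A change of sign in a value called in neither fit was not counted. Scaling by library size alone raised the median of all genes in the combination from 0.06 to 0.26, and upper-quartile scaling to 0.25. With library size the members' medians were -0.17 for AKTi, -0.41 for EZH2i and -0.65 for the combination against DMSO, -0.32 and -0.14 for the combination against AKTi and EZH2i, and -0.18 for EZH2i against AKTi, with 3 members higher with EZH2i, 3 with the combination, 2 against EZH2i and 4 for EZH2i against AKTi. With upper-quartile scaling they were -0.18, -0.44, -0.66, -0.33, -0.13 and -0.21, with 2, 3 and 2 members higher with EZH2i, the combination and the combination against EZH2i. SURF1 in the combination turned to 0.19 (adjusted p = 0.00681) and 0.18 (0.00989) under these scalings, and ATPAF1 with EZH2i to 0.014 under library size. With genes of at least 1 count kept, 1 member was higher with AKTi and 1 for EZH2i against AKTi, and with at least 10 counts in every library 1 was higher in the combination, with medians of -0.77 against DMSO and -0.39 against AKTi. Beyond the shift in all genes shown above, the cause was not tested.

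Leaving out each library gave 1 to 2 members higher with AKTi (1 without DMSO B or C or AKTi B or C) and medians from -0.28 to -0.19 for AKTi, -0.62 to -0.49 for EZH2i, -0.90 to -0.83 for the combination, -0.56 to -0.46 for the combination against AKTi and -0.31 to -0.25 for EZH2i against AKTi. Members higher ranged from 0 (without combination A) to 1 for the combination against EZH2i and from 1 to 2 for EZH2i against AKTi. For the interaction 2 to 5 were higher (2 without DMSO A or AKTi A) and 3 to 7 lower (3 without DMSO B, AKTi C or combination C), with medians from -0.094 to -0.0042. Members lower in the combination numbered 32 to 34. Same-letter libraries of different arms did not deviate together (correlation -0.0583 to 0.0688 over 18 pairs, beside -0.0685 to 0.0574 over 36 pairs of different letters). A shared effect of the letter was therefore not visible, but 3 libraries per arm cannot exclude that the letters mark paired samples. With the letter as a replicate block, 279 of 280 member values kept their call and 1 gained it. Counts were lowest for COX16 and for the 2 overlapping rows of SCO2.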
